A study of Mus musculus with 8 samples.

Results

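The Ras-MAPK module described here holds 34 mouse genes, of which 19 encode feedback inhibitors (the Spred, Spry, Dusp, Rasa and Rasal genes and Nf1) and 15 encode kinases, small GTPases, exchange factors and adaptors of the cascade. The second class, called kinases and adaptors below, also holds Ptpn11, a phosphatase gene, and Cbl, a ubiquitin ligase gene whose product is itself a brake on receptors. Open chromatin around them was read from ATAC-seq peak lists, in which a peak marks DNA that a transposase could enter. A member region was a stretch of overlapping peaks with a summit inside the gene or within 50 kb of it, and 720 of the 138385 regions on the autosomes and X met that rule. Of these, 380 belonged to feedback inhibitors and 340 to kinases and adaptors, each region being given to its nearest member gene.

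The cells were L-GMPs, labelled as leukemia stem cells and sorted from bone marrow of MLL-AF9 leukemic mice as lineage-negative, Sca-1-negative cells with c-Kit, CD16/32 and CD34 on the surface, and about 5000 cells entered each reaction. All groups therefore carried the MLL-AF9 oncogene. The 2 libraries called 4S-A carried the allele Dek-Ser306A/Ser308A/Ser311A/Ser312A, in which alanine replaces 4 serines of DEK, a chromatin-binding protein. Of 3 Dek knockouts, KO 1 and KO 2 were Dek fl/fl with Mx1-Cre (MX1-Cre in the labels), an interferon-inducible driver active in blood and other tissues, and KO 3 was Dek fl/fl with Tie2-Cre, a driver of endothelial and blood cells. The 3 controls comprised FL 1 and FL 2, which were Dek fl/fl without Cre, and FL 3, which was Dek+/+. The 4S-A libraries, KO 3 and FL 3 are called the Tie2-Cre set below, and KO 1, KO 2, FL 1 and FL 2 the Mx1-Cre set. Each set is named after the Cre driver of its knockouts, and the name does not say that its other libraries carried Cre. The sources used here give neither age nor sex, nor whether a library was 1 mouse or a pool, so the spread between libraries may in part be technical.

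Ras is a switch that is on when it holds GTP. Receptors load it through Grb2, Gab2, Ptpn11 and the exchange factors Sos1 and Sos2, and active Ras passes the signal through Raf kinases and Map2k kinases to Mapk3 and its relatives. The cascade is damped by GTPase activators (Nf1, Rasa and Rasal proteins), by Spred and Sprouty proteins that act on Ras and Raf, and by Dusp phosphatases that remove phosphate from MAP kinases. In myeloid cells these brakes are known for their loss in leukemia, NF1 in juvenile myelomonocytic leukemia being an example from humans.

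The 250 bases before the start of 4 members are shown first because they hold matches to motifs searched around all starts, which stand in capitals. Sequences are from RefSeq (GRCm38.p6), written 5′ to 3′ on the strand of the gene. Dusp5 lies on the plus strand (chr19:53528895-53529144), and Dusp1 (chr17:26508473-26508722), Ptpn11 (chr5:121191398-121191647) and Rasa1 (chr13:85289487-85289736) lie on the minus strand.
Dusp5: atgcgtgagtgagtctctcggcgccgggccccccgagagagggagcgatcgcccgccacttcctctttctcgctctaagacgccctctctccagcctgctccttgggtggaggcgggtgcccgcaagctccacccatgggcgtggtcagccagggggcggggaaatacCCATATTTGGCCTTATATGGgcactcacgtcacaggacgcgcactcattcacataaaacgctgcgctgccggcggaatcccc
Dusp1: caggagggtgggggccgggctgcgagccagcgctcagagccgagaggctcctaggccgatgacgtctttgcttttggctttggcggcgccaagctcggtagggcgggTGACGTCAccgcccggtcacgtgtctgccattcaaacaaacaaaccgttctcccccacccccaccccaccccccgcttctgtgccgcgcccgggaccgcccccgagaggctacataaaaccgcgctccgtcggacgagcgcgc
Ptpn11: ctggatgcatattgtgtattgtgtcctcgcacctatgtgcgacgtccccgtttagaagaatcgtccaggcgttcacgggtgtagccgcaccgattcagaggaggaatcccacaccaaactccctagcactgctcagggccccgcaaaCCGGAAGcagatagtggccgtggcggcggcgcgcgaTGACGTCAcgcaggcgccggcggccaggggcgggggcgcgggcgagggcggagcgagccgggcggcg
Rasa1: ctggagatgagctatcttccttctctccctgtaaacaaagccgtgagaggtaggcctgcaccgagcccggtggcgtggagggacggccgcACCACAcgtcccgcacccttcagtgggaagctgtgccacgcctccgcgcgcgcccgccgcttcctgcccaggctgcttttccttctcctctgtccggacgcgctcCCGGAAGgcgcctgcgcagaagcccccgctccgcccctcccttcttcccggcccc
In Dusp5, which encodes a nuclear ERK phosphatase, the capitals are a pair of adjoining CArG boxes, the element bound by serum response factor, from 82 to 63 bases before the start. Those in Dusp1, the gene of another MAP kinase phosphatase, are a CRE (TGACGTCA) from 143 to 136 bases before the start. Ptpn11, the gene of the phosphatase SHP2, has an ETS core (CCGGAAG) and a CRE, and Rasa1, the gene of a Ras GTPase activator, has a RUNX match (TGTGGT) on the opposite strand and an ETS core.

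Over the 300 bases around each start (250 before, 50 after), on both strands, CRE matches lay in 3 of the 32 windows of the 29 members in the promoter table (Braf, Dusp1 and Ptpn11), or 9.38%, beside 1.80% of the 32619 windows in the table. A CArG box was found in 1 member window and in 1.64% of all windows. ETS cores were found in 3 member windows (9.38%) and in 8.92% of all. RUNX matches were found in 9.38% of member windows and 16.6% of all, and MEIS matches (TGACAG) in 15.6% and 18.9%. No member window held AP-1 (TGANTCA) or PBX-HOX (TGATTNAT), which lay in 7.85% and 3.24% of all windows. None of these motifs overlapped another in the printed sequences. Member windows held more CG dinucleotides (median 28.5, beside 7 in all windows), and the CRE and ETS letters include CG. The shares were not matched for base composition. Matches are letters in a window and do not show that a factor bound there.

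Starts of the members were open in nearly every case. A region within 1 kb of the start was present in all 8 libraries at 28 of the 29 members that have a start in the promoter table, beside 54.0% of 17273 protein-coding genes. For Dusp4, Gab2, Mapk3, Rasal1 and Spry4, which are not in that table, the nearer of the gene's ends was used, and each had a region in all 8 libraries. Strength is given as the percentile of a peak's −log10 q in its own library's list, where the strongest peak is at 100. By that measure the start regions of kinases and adaptors had means over libraries of 76.9 to 99.0 with a median of 92.6. Those of feedback inhibitors had means of 70.7 to 98.7 with a median of 85.3.

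Among the kinases, Map2k1, which encodes the ERK kinase MEK1, had the strongest start of all members (chr9:64252714-64254000), at 99.3 and 99.6 in 4S-A, 97.8, 99.2 and 99.6 in KO, and 99.3, 98.3 and 99.1 in FL. Cbl, the gene of a ubiquitin ligase that takes receptors down, ranged from 93.6 to 99.3 and Grb2 from 94.8 to 98.3. Sos2 had the lowest start of its class, at 84.4 and 82.0 in 4S-A, 73.5, 74.6 and 80.2 in KO, and 68.6, 70.4 and 81.9 in FL. At Sos2 the 4 libraries of the Tie2-Cre set stood above those of the Mx1-Cre set in percentile, which is raised by a longer list with more weak peaks. Ranked among the 33321 regions shared by all libraries, Sos2 showed no such order (54.3 and 52.5 in 4S-A, 56.4, 45.9 and 47.6 in KO, and 53.2, 52.9 and 51.5 in FL).

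The strongest inhibitor start was that of Dusp5 (chr19:53528649-53529974), whose paired CArG boxes are printed above. It stood at 99.0 and 99.5 in 4S-A, 99.0, 98.9 and 99.6 in KO, and 96.9, 97.4 and 99.1 in FL. Rasa1 (96.5 to 99.0), Dusp7 (94.1 to 97.4) and Rasal2 (85.3 to 96.8) came next. Rasal3, which encodes a Ras GTPase activator of blood cells, varied most, with 87.4 and 83.1 in 4S-A, 54.7, 69.5 and 85.1 in KO, and 45.8, 62.2 and 79.0 in FL. All Tie2-Cre set libraries were above all Mx1-Cre set libraries, also in rank among shared regions (62.4 and 55.2 in 4S-A, 30.7, 36.4 and 59.5 in KO, and 25.0, 41.2 and 44.8 in FL).

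Spred3, the gene of a Spred protein, was the 1 member with no region at its start in any library. Its locus was otherwise open, since 12 of its 17 regions were present in all 8 libraries and its strongest region, at the start of the neighbouring proteasome gene Psmd8, ranged from 97.6 to 99.7. The bases before 5 starts are set side by side here, with CG dinucleotides in capitals, because member starts differ in them: Map2k1 (chr9:64253606-64253855, minus), Rasa2 (chr9:96631504-96631753, minus), Dusp6 (chr10:99262981-99263230, plus), Rasal3 (chr17:32403583-32403832, minus) and Spred3 (chr7:29168648-29168897, minus).
Map2k1: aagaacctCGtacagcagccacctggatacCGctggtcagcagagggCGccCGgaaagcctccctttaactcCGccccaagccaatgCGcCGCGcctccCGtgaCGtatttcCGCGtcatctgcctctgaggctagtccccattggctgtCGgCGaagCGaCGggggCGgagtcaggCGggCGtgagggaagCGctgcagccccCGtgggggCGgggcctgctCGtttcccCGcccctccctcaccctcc
Rasa2: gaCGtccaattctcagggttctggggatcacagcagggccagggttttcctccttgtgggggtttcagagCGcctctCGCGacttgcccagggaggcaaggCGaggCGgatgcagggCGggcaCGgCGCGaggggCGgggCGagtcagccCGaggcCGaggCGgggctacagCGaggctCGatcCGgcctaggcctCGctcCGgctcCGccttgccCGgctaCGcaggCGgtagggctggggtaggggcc
Dusp6: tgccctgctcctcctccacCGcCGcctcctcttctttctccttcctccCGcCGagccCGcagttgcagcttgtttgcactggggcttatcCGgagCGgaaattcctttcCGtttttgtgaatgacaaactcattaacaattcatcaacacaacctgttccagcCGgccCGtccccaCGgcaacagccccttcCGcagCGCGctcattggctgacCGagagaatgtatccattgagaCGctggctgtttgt
Rasal3: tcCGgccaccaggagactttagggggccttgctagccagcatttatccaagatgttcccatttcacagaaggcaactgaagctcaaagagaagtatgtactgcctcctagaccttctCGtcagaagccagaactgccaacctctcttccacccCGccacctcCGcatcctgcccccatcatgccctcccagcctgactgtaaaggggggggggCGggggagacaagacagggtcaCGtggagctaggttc
Spred3: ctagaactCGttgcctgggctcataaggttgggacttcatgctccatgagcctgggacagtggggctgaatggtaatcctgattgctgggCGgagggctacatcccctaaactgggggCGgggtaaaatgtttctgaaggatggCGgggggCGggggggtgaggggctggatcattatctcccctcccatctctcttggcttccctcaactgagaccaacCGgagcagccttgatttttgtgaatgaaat
These stretches hold 24 CG dinucleotides in Map2k1, 24 in Rasa2, 16 in Dusp6, 6 in Rasal3 and 6 in Spred3. Over the 300 base windows the median was 28.5 in members and 7 in all windows of the table. Grb2, whose start was among the strongest, had 7 and 3 in its 2 windows, so a low CG count did not always go with a weak or missing start region. Nor did a high count always go with a strong start. Sos2 had the most of any member (54) and the lowest start of its class, at a mean of 76.9.

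**Figure D1:**
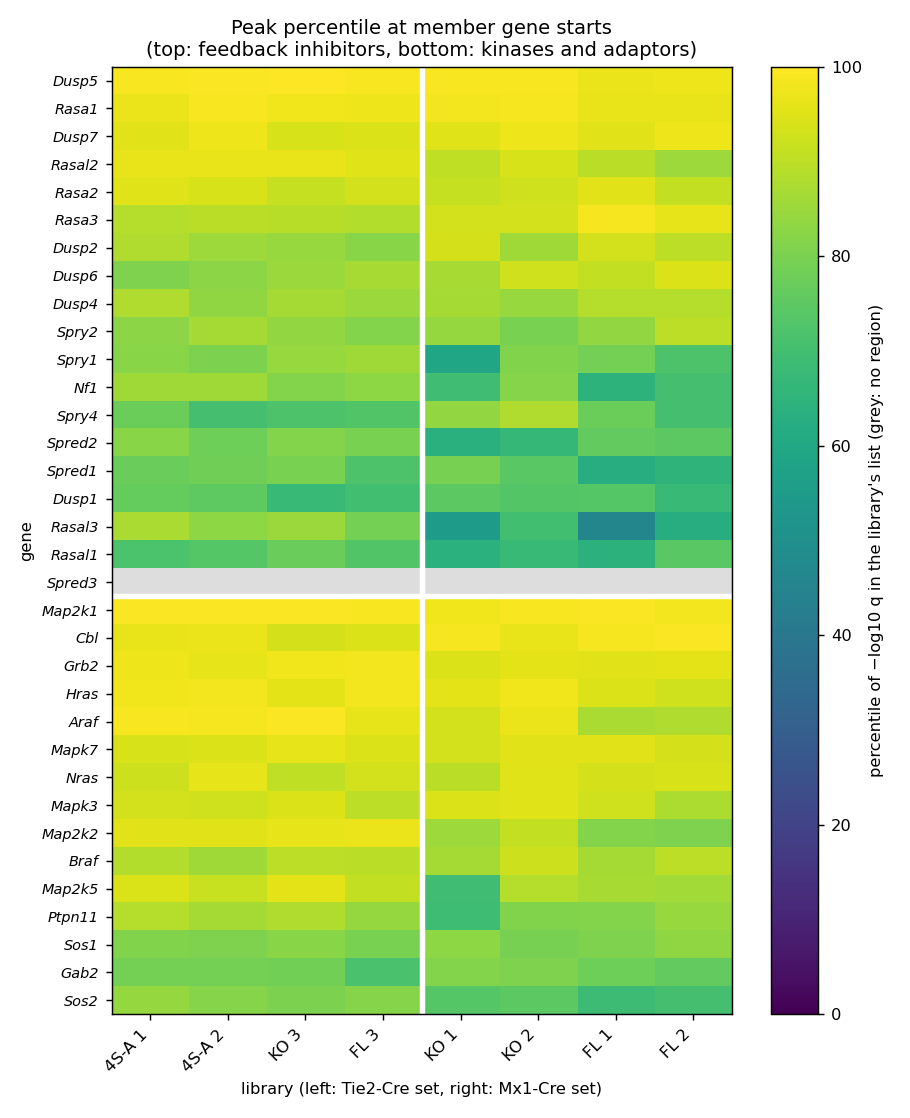
Percentile of −log10 q (colour, 0 to 100) of the region at the start of each member gene (rows) in each library (columns), with feedback inhibitors above and kinases and adaptors below the white line. Map2k1 and Dusp5 lead their classes with means of 99.0 and 98.7, and Spred3 (grey) has no region at its start.

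Away from the starts, 412 of the 720 regions lay outside genes' starts, 213 inside a member, 54 at the start of another gene, 32 at a member's own start and 9 at a member's gene end. Nf1, the gene of a Ras GTPase activator, had 43 regions, Gab2 39 and Cbl 38, while Nras had 8 and Rasa1 5. A peak in all 8 libraries was found at 31.8% of member regions, beside 24.1% of all regions, and in a single library at 19.2%, beside 23.5%. For 12 of the 34 members the strongest shared region was the own start, and for 10 it lay outside genes' starts. For 9 it was the start of another gene, for 2 it lay inside the gene and for 1 at the gene end. The strongest of any member lay 27801 bp outside Hras (chr7:141221587-141222445), with a mean of 99.4.

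Libraries differed in list length. The 4S-A lists held 104605 and 94725 peaks, the KO lists 56245, 74026 and 93041, and the FL lists 51510, 54887 and 91586, so the number of member regions held followed: 578 and 520 in 4S-A, 321, 412 and 520 in KO, and 303, 324 and 509 in FL. Read depth is unknown, and in these bulk samples a missing peak cannot tell fewer cells with open DNA from less open DNA per cell. In the lists, 61 member regions had a peak in all 4 Tie2-Cre set libraries and in none of the Mx1-Cre set, or 14.8% of the 413 that could, beside 15.9% of all regions. The reverse held at 1 of 240, beside 0.301%. This count was added after the data were seen, and the Cre driver, the control genotype and list length cannot be told apart within it. Of 14 progenitor markers such as Kit, Cd34, Cebpa and Spi1, 13 had a start region in every library, Prtn3 being the exception. Of 20 markers of other cells, 10 and 10 had one in 4S-A, 7, 10 and 10 in KO, and 5, 6 and 8 in FL. Among them Cd3e, Cd79a, Ms4a1, Gata1 and Hbb-bt had no start peak in any library, and Klf1, an erythroid factor, stood at 83.3 to 95.2. The part of other cells in the results below was not tested. Dek itself had a start region in all 8 libraries, which does not check the deletion.

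The Dek knockout was first compared with the controls by presence. A region was called lost when all 3 FL libraries held it and no KO library did, and gained when the reverse held. Over all regions 81 of 37770 were lost (0.214%) and 344 of 45634 were gained (0.754%). Members gave 1 lost of 261 and 1 gained of 297, or 0.383% and 0.337%, so single regions of the module, no more, met either rule.

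The lost region lay inside Map2k5 (chr9:63281148-63281431), which encodes the kinase that activates Mapk7 (ERK5). It had no peak in KO 1 to 3, against percentiles of 58.5, 59.1 and 9.8 in FL 1 to 3. It was absent from both 4S-A libraries as well, so FL libraries alone held it, and FL 3 held it weakly. The gained region lay 13861 bp outside Spred2, the gene of a Ras-Raf inhibitor (chr11:20037724-20038143). Its percentiles were 12.6, 32.8 and 18.5 in KO, with no peak in FL. Both 4S-A libraries held it too, at 5.8 and 35.4. In the equal-length lists (the strongest 51510 peaks of each library) neither region was called. Without FL 3, gained member regions numbered 31 of 297 or 10.4%, beside 10.7% of all regions. Without FL 1, lost ones numbered 4 (1.33%, beside 0.758% of all), and they numbered 3 (1.15%, beside 1.46%) without KO 3. Gained ones numbered 5 (1.34%, beside 2.42%) without KO 1, 2 (0.656%, beside 1.26%) without KO 2 and 4 (1.30%, beside 2.67%) without KO 3.

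**Figure D2:**
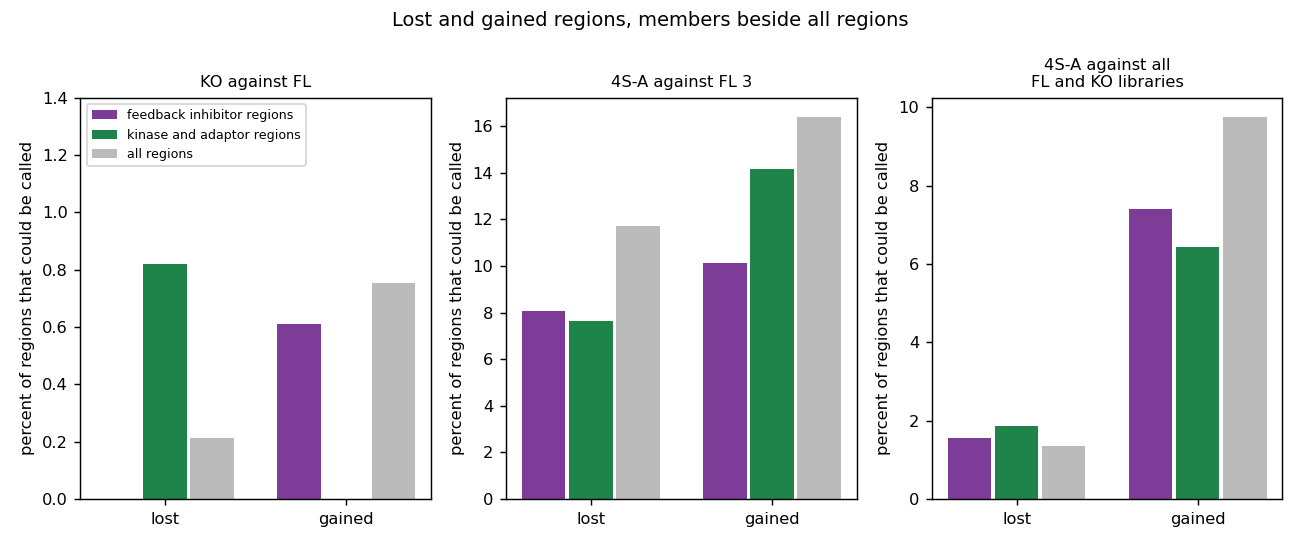
Percent of the regions that could be called (vertical axis, own scale per panel) that were lost or gained, for feedback inhibitor regions, kinase and adaptor regions and all regions. In 4S-A against FL 3 both member classes lie below all regions in either direction, for example 8.06% and 7.63% lost beside 11.7%. In equal-length lists the lost shares are 13.9% and 13.2%, beside 13.9% of all regions.

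Strength was compared over the 33321 regions held by all 8 libraries, 229 of them members (124 of inhibitors, 105 of kinases and adaptors). Each region was ranked inside that shared set from 0 to 100 in each library, and ranks were fitted with limma over all 8 libraries with the set as a covariate. For KO against FL no region of the 33321 was called lower (0%) or higher (0%) at an adjusted p of 0.05, and 10.2% had an unadjusted p under 0.05. Among members 0 were called and 25 of 229, or 10.9%, had an unadjusted p under 0.05. The smallest adjusted p among members was 0.347. The median difference was -1.21 rank points in members and -0.07 in all regions.

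The member region with the largest difference lay 24882 bp outside Hras, a Ras gene (chr7:141164850-141165240). Its ranks were 14.8, 37.0 and 20.5 in KO, against 65.9, 59.1 and 39.4 in FL, so the groups did not overlap. The difference was -30.7 ± 7.17 (SE) with an adjusted p of 0.355 in limma. Second came a region 21797 bp outside Map2k2, the gene of MEK2 (chr10:81146163-81146809), with ranks of 16.9, 16.4 and 37.8 in KO and 59.0, 56.7 and 43.5 in FL. The third lay 32346 bp outside Nf1 (chr11:79306992-79307417), with 13.9, 32.4 and 21.0 in KO and 58.1, 53.3 and 35.6 in FL. These 3 regions were lower in KO than in FL in both sets. Regions at Dusp1, Spry2 and Nras followed with differences of -25.6, -20.9 and -17.3. At the Dusp1 region, 6354 bp outside the gene, KO was lower in the Mx1-Cre set (7.9 and 12.9, against 60.9 and 50.2 in FL) and higher in the Tie2-Cre set (20.3 in KO 3, against 6.6 in FL 3).

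In the other direction, a second Nf1 region, 29409 bp outside the gene (chr11:79610373-79611659), had ranks of 45.1, 53.5 and 14.8 in KO and 13.0, 16.2 and 12.2 in FL, a difference of 23.98 ± 6.91 (SE, adjusted p = 0.376 in limma). The 2 high libraries were KO 1 and KO 2, and KO 3 lay within the range of FL. A region inside Dusp7, the gene of a cytoplasmic ERK phosphatase, had 56.0, 47.0 and 32.7 in KO and 25.7, 24.7 and 25.6 in FL, with all KO libraries above all FL libraries. The region 28689 bp outside Spred3 had 31.2, 33.4 and 4.6 in KO and 4.9, 1.2 and 3.7 in FL. Regions at Gab2, Dusp7 and Rasal1 had differences of 19.2, 19.1 and 18.3. None of these 12 regions passed the test, and a test of the difference in the KO effect between the sets called no member either (smallest adjusted p 0.256 in limma). Higher ranks in KO than in FL in both sets were seen at 24 of 229 member regions (10.5%), beside 9.81% of all regions, and lower ones at 27 (11.8%), beside 10.2%.

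Both DEK mutant libraries came from the Tie2-Cre set, where FL 3 was the only control, so presence in 4S-A against FL 3 compares 2 libraries with 1 and has no p. Of all regions held by FL 3, 11.7% were absent from both 4S-A libraries, and of all regions held by both 4S-A libraries 16.4% were absent from FL 3. For members the counts were 40 lost of 509 (7.86%) and 59 gained of 490 (12.04%). Of the lost regions 22 belonged to inhibitors and 18 to kinases and adaptors, and of the gained ones 26 and 33. Among the 12 lost regions with the highest percentile, and apart from the 4 named further on, was one inside Spred2 (chr11:19993758-19994068) with no peak in 4S-A, 25.6 in KO 1, 43.2 in KO 3 and 40.0 in FL 3, and none in the others. Others lay at Dusp6 (39.8 in FL 3 and no peak elsewhere), Cbl (37.3), Rasa3 (36.3), Dusp4 (31.8), Gab2 (30.8), Dusp7 (26.2) and Spred1 (25.6), all with their FL 3 percentile. None of these 8 stood above 40.0 in FL 3. Gained regions that KO libraries shared included one inside Map2k5 (chr9:63245110-63245719) at 57.7 and 49.1 in 4S-A and 62.4 in KO 3. Another lay inside Cbl (chr9:44231052-44231349) at 52.3 and 36.3 in 4S-A and 46.6 in KO 3. Further ones lay at Spred2, Rasal1 and Mapk7, with means of 44.0, 64.9 and 59.3 in 4S-A. The Spred2 region was also held by the controls FL 1 (19.1) and FL 2 (23.3), beside 2.7 in KO 2 and 49.6 in KO 3. Of the KO and FL libraries, KO 2 alone held the Rasal1 and Mapk7 regions, at 26.1 and 20.1. In the equal-length lists 44 member regions were lost (13.5%, beside 13.9% of all regions), so the lower lost share of members was not seen there, and 28 were gained (9.79%, beside 13.8%). Lost member regions numbered 68 without 4S-A 1 (13.4%, beside 18.8% of all), and gained ones 119 without 4S-A 2 (20.6%, beside 24.3%).

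A stricter rule asked that both 4S-A libraries differ from all 6 other libraries. Lost regions were then 467 of 34313 (1.36%) and gained regions 8230 of 84377 (9.75%). Members gave 4 lost of 235 (1.70%) and 34 gained of 490 (6.94%). Both shares stand near or below those of all regions, so the count does not set the module apart, and what follows describes single regions.

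Rasa2, a Ras GTPase activator gene, held the strongest of the 4 lost regions. It lies inside the gene (chr9:96544046-96544574), 87193 bp after the start. No peak was called there in either 4S-A library, while percentiles were 72.2, 83.0 and 91.2 in KO and 65.4, 67.2 and 90.0 in FL. It was missing from both mutant libraries and no other. By mean percentile it ranked 2 among the 467 regions lost in this way. Of 13160 regions that were in all 6 libraries with a mean at least as high, 2 were absent from both 4S-A libraries (0.0152%). That cutoff is the region's own mean, and the region was picked as the strongest of the 4. The rank and share therefore describe it and test nothing.

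The rest of the Rasa2 locus stayed open in the mutant. The start region (chr9:96630596-96631766) had 95.2 and 94.0 in 4S-A, 91.2, 92.7 and 91.2 in KO, and 95.5, 90.8 and 93.2 in FL. The strongest region of the locus, 38375 bp outside the gene, ranged from 96.4 to 99.7 over the 8 libraries. Inside the gene, a region at chr9:96577672-96578577 had 89.4 and 86.9 in 4S-A, 19.4, 12.5 and 45.1 in KO, and 59.6 in FL 3 with no peak in FL 1 and FL 2. A neighbour at chr9:96558872-96559819 had 89.3 and 83.1 in 4S-A, 12.5 and 73.8 in KO 2 and KO 3, and 74.1 in FL 3. Both stood higher in 4S-A than in any other library, at the same gene that lost a region. These last regions were picked after their values were seen. In all, 4S-A held 24 and 22 of the 28 Rasa2 regions, KO 15, 21 and 25, and FL 12, 16 and 23.

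The other lost regions were weaker. One lay 33258 bp outside Sos1, an exchange factor gene (chr17:80360160-80360711), with 60.5, 69.0 and 32.3 in KO and 67.1, 63.1 and 42.6 in FL. Another lay inside Nf1 (chr11:79570341-79570712), with 46.2, 72.8 and 40.7 in KO and 14.5, 40.8 and 32.5 in FL. The last lay 44257 bp outside Sos2 (chr12:69539294-69539631), with 27.1, 40.1 and 15.1 in KO and 52.6, 54.6 and 31.7 in FL. They ranked 80, 250 and 307 among the 467. In the equal-length lists only the Rasa2 region among the 4 was called again.

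Among gained regions Dusp6 had the most, 5 of 34, followed by Araf with 4. Dusp6 encodes the cytoplasmic phosphatase of ERK and is a textbook target of ERK signalling. The strongest of its 5 lay inside the gene, 2237.5 bp after the start (chr10:99265345-99265592), at 53.6 and 49.6 in 4S-A and with no peak in KO or FL. The others lay 23551, 30457, 41506 and 48041 bp outside the gene, at 49.8 and 34.5, at 29.1 and 14.03, at 22.7 and 25.6, and at 41.0 and 17.6. A further region 12242 bp outside (chr10:99279383-99279968) had 58.1 and 63.3 in 4S-A and 7.0 in KO 3, with none elsewhere. Each 4S-A library held 16 of the 17 Dusp6 regions, against 8, 10 and 11 in KO and 8, 9 and 11 in FL. The 5 gained regions are among the 17 only because 4S-A held them, so part of this excess is built in. Over all regions the 4S-A libraries held 73.4% and 65.9%, the KO libraries 38.3%, 49.9% and 65.4%, and the FL libraries 34.5%, 37.0% and 64.7%. Of the 5 gained Dusp6 regions, 1 was called again in the equal-length lists.

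The start of Dusp6 went the other way. It had 80.8 and 82.5 in 4S-A, 87.1, 92.6 and 84.8 in KO, and 91.0, 94.7 and 86.8 in FL, so both mutant libraries were lowest. In shared rank the difference was -15.1 ± 4.88 (SE) with an adjusted p of 0.332 in limma, which did not pass. A region 3014 bp outside Dusp6 (chr10:99270303-99270840), by contrast, had shared ranks of 89.3 and 81.6 in 4S-A, 58.1, 70.8 and 84.1 in KO, and 61.4, 49.6 and 65.6 in FL. Its difference was 16.7 ± 7.19 (SE, adjusted p = 0.482 in limma), which did not pass either. In whole lists, then, more Dusp6 regions were held in the mutant, with the gained ones counted in, beside a start that was not higher.

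**Figure D3:**
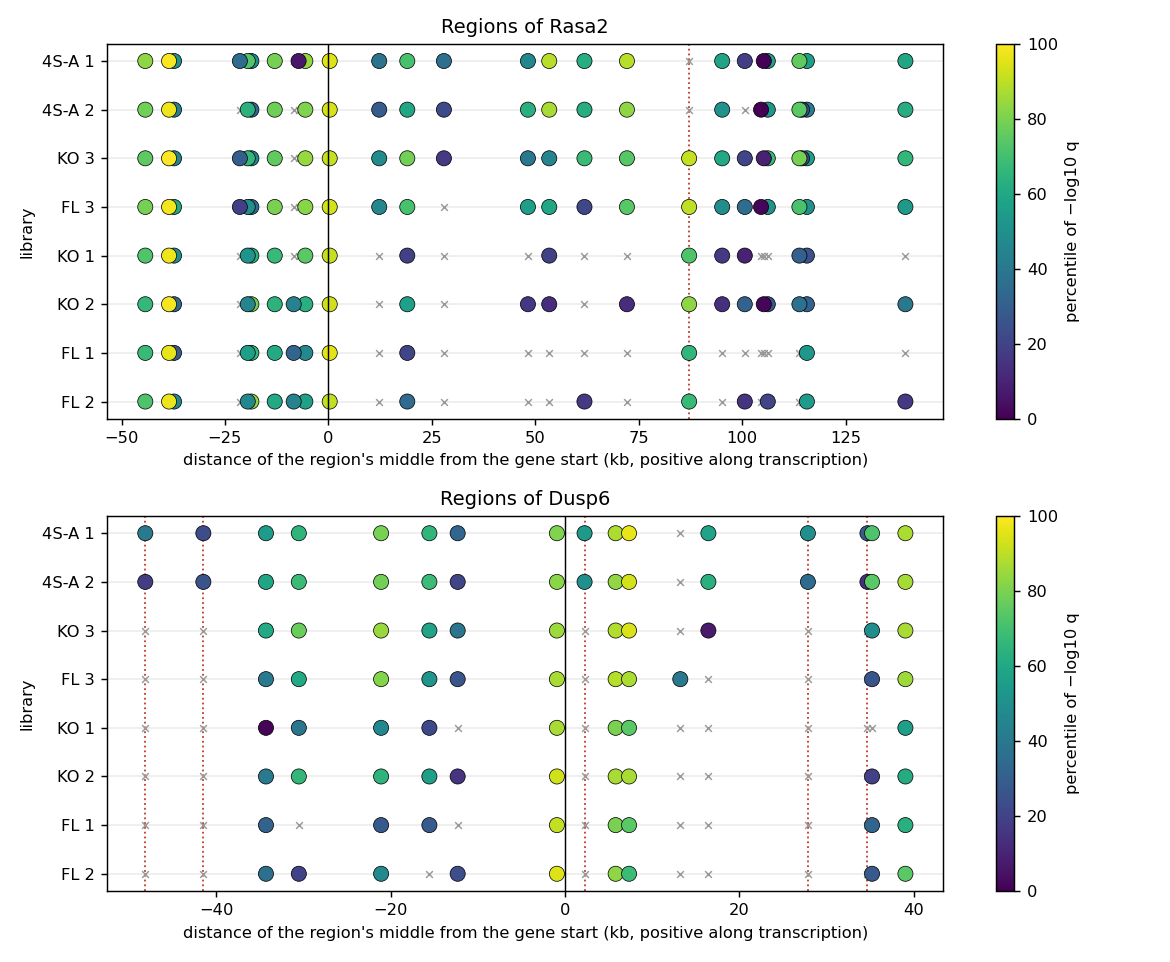
Regions of Rasa2 (top) and Dusp6 (bottom) by distance from the gene start (kb) in each library (rows), with percentile of −log10 q as colour and crosses where a library had no peak. Dotted lines mark regions that separate both 4S-A libraries from the other 6, which are 1 lost region at Rasa2 and 5 gained regions at Dusp6.

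Of the other gained regions, the strongest lay inside Sos2 (chr12:69636414-69636855) at 76.6 and 62.8. Next came regions 14034 bp outside Rasal3 (chr17:32376240-32376819) at 63.8 and 70.7, and 12296 bp outside Dusp2, the gene of a nuclear MAP kinase phosphatase (chr2:127323532-127324361), at 58.0 and 60.1. One lay inside the annotated span of Araf, a Raf kinase gene (chrX:20809062-20809495), at 53.6 and 52.1. No KO or FL library had a peak in any of them. Map2k2 (50.5 and 41.3, 45787 bp outside) and a second Sos2 region (44.0 and 33.6, 11313 bp outside) followed, then Rasal3 at the start of Wiz (31.5 and 43.1), Rasal1 (23.9 and 33.5) and Rasa3 (41.8 and 13.4). Gained regions made up 19 of 257 for inhibitors (7.39%) and 15 of 233 for kinases and adaptors (6.44%), both below the 9.75% of all regions, and the difference between the classes was not tested. In the equal-length lists 5 of the 34 were called again, 1 each at Araf, Dusp2, Dusp6, Rasal3 and Sos2. Without 4S-A 2 the count was 83 (14.4%, beside 15.7% of all regions). The longer 4S-A lists move with these gains, and their part was not tested.

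In shared rank, 4S-A against FL gave 1 region lower (0.003%) and 1 higher (0.003%) of 33321, neither a member, and 10.9% with an unadjusted p under 0.05. Members had 22 of 229 (9.61%) under that value, and the smallest adjusted p was 0.119 in limma. That value belonged to a region 33860 bp outside Rasal2 (chr1:157101117-157101691), a GTPase activator gene, with ranks of 26.4 and 23.6 in 4S-A, 12.5, 12.3 and 7.2 in KO, and 4.0, 6.2 and 0.6 in FL. All 4S-A libraries were above all KO libraries, and all KO above all FL. The difference between 4S-A and FL was 24.6 ± 3.75 (SE).

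The largest lower difference was inside Dusp5 (chr19:53538589-53539454), with ranks of 37.1 and 52.1 in 4S-A, 30.8, 32.2 and 70.9 in KO, and 42.8, 31.2 and 73.3 in FL. It was -29.7 ± 6.83 (SE, adjusted p = 0.198 in limma). Here 4S-A was lower than KO 3 and FL 3 of its own set, and overlapped the Mx1-Cre set. The region inside Cbl (chr9:44213455-44214051) had 23.5 and 35.9 in 4S-A, 89.2, 79.8 and 54.5 in KO, and 75.8, 70.8 and 63.7 in FL, with the mutant below all others. A region inside Gab2 (chr7:97251426-97252139) likewise had 10.9 and 19.5 in 4S-A, 60.4, 76.4 and 36.1 in KO, and 62.7, 60.4 and 47.9 in FL. Their differences were -27.2 ± 7.93 and -26.5 ± 8.06 (SE), and neither passed. Regions outside Map2k2, Spry2 and Ptpn11 had differences of -28.4, -26.6 and -24.4, the first 2 being the Map2k2 and Spry2 regions named for KO above. The comparisons share the FL libraries and the set term, so a limma difference need not equal 4S-A less FL 3. The Map2k2 region, for example, had ranks of 26.3 and 27.4 in 4S-A and 43.5 in FL 3. Regions outside Spry1, Nf1 and Dusp1 and inside Spred2 had differences of 23.7, 17.7, 15.8 and 17.8, and none of them passed. The Nf1 region is the second one named for KO (chr11:79610373-79611659). Its ranks were 18.2 and 20.2 in 4S-A, 45.1, 53.5 and 14.8 in KO, and 13.0, 16.2 and 12.2 in FL.

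Within the Tie2-Cre set, 62 of 229 member regions (27.1%) ranked lower in both 4S-A libraries than in KO 3 and FL 3, beside 23.1% of all regions, and 32 (13.97%) ranked higher, beside 22.5%. The median difference of members in limma was -1.79 rank points, beside -0.10 over all regions, and was -1.91 in inhibitors and -1.53 in kinases and adaptors.

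**Figure D4:**
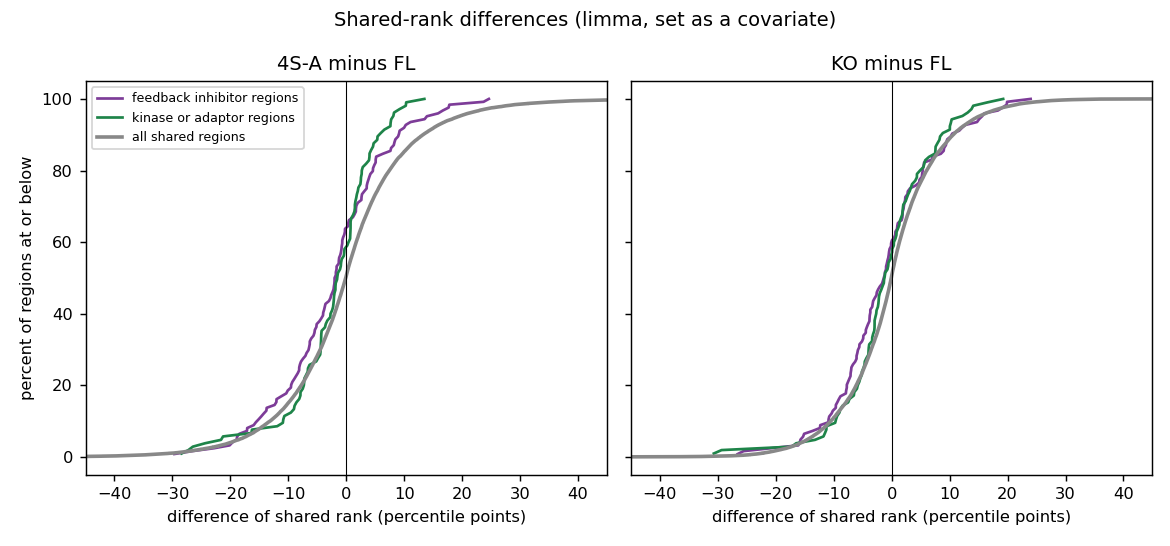
Cumulative percent of regions (vertical axis) by their difference of shared rank (percentile points) for 4S-A minus FL and KO minus FL. Member medians are -1.79 and -1.21, beside -0.10 and -0.07 over all shared regions, and no member region passed the test.

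The 2 classes were set against each other by relative coverage, in percentage points. It is the share of a class's regions that a library holds, less the share of all regions that the same library holds. In the 50 kb window it was above 0 in every library for both classes. In the 10 kb window kinases and adaptors were below 0 in KO 1 (-3.85), KO 2 (-1.32) and FL 2 (-0.321). For feedback inhibitors it was 6.38 and 4.85 points in 4S-A, 9.05, 11.7 and 7.76 in KO, and 8.18, 8.75 and 7.12 in FL. For kinases and adaptors it was 7.52 and 7.88 in 4S-A, 3.15, 2.44 and 5.78 in KO, and 7.01, 7.07 and 4.69 in FL. In KO the inhibitors averaged 9.49 ± 1.99 and in FL 8.01 ± 0.827 (SD, n = 3 each), a difference of 1.48 points. Kinases and adaptors averaged 3.79 ± 1.76 in KO and 6.26 ± 1.36 in FL (SD, n = 3 each), a difference of -2.47. Within the Mx1-Cre set it was -4.25, while KO 3 was 1.09 above FL 3. With the 10 kb window both differences were below 0, at -2.43 for the Mx1-Cre set and -0.670 for KO 3 minus FL 3. The 4S-A libraries averaged 5.61 for inhibitors and 7.70 for kinases and adaptors, which differ from FL 3 by -1.503 and 3.02. In the equal-length lists this last difference was -4.58, so its direction changed with list length. The order of the classes changed too. In whole lists inhibitors stood above kinases and adaptors in all 6 KO and FL libraries, and in equal-length lists they did so in KO 1 (by 1.64) and stood below in the other 5, by -0.717 in KO 2, -9.24 in KO 3, -4.43 in FL 1, -1.41 in FL 2 and -11.5 in FL 3.

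**Figure D5:**
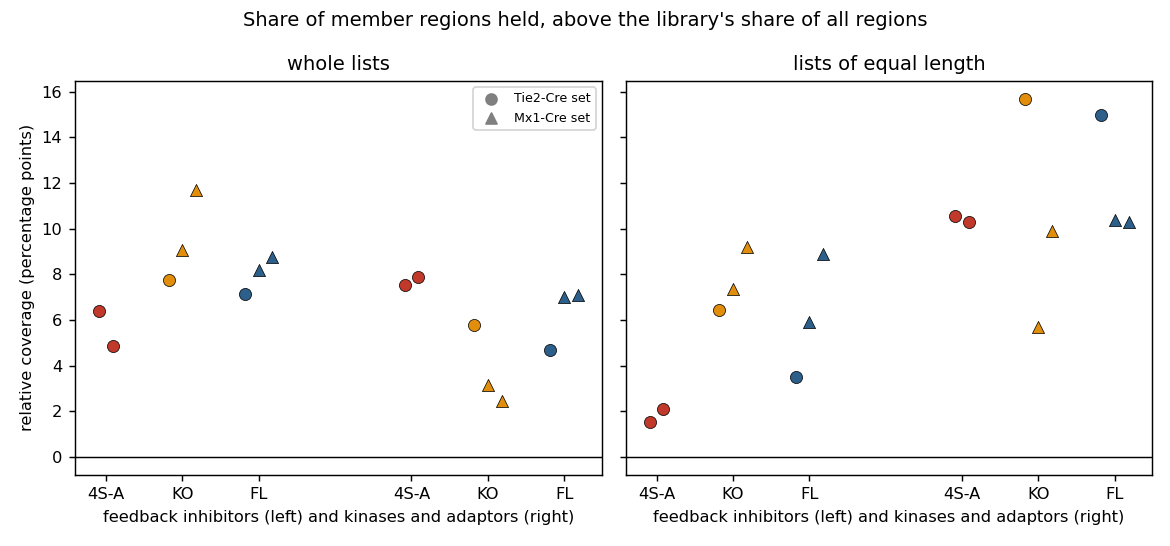
Relative coverage (percentage points) of feedback inhibitor regions and of kinase and adaptor regions in each library, for whole lists (left) and lists of equal length (right), with circles for the Tie2-Cre set and triangles for the Mx1-Cre set. In whole lists both 4S-A libraries (4.85 and 6.38) are below FL 3 (7.12) for inhibitors and above it for kinases and adaptors (7.88 and 7.52, against 4.69), and with equal lengths the kinases and adaptors of 4S-A are below FL 3.

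Other genes around the module were counted with the same calls. At 46 further Ras-MAPK genes, counted as a list, KO lost 0 of 324 regions and gained 1 of 370, inside Map2k6. At 21 genes known as ERK targets, 2 of 168 were lost, near Ier2 and Egr1, and 1 of 180 was gained, near Ier2, while at 16 receptor genes 0 of 99 were lost and 2 of 120 were gained, at Flt3 and Csf3r. Over all regions 0.214% were lost and 0.754% gained. In 4S-A against the other 6 libraries, the further Ras-MAPK genes lost 6 of 304 and gained 42 of 583, ERK targets lost 2 of 149 and gained 18 of 293, and receptors lost 0 of 90 and gained 12 of 213. The lost shares of 1.97%, 1.34% and 0% stand beside 1.36% of all regions, and the gained shares of 7.20%, 6.14% and 5.63% are below the 9.75% of all regions. The strongest gained region near an ERK target lay inside Etv4, an ETS factor gene (chr11:101778763-101779301), at 80.7 and 77.4 in 4S-A with no peak elsewhere. The strongest gained region of the further Ras-MAPK genes lay 38730 bp outside Mapk8, a JNK gene (chr14:33338601-33339435), at 88.8 and 84.4, and that of the receptors 8411 bp outside Flt3 (chr5:147408587-147409079), at 75.7 and 63.6. In limma 0 regions of the 3 lists were called in either comparison.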

How the data were processed

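ATAC-seq peaks from 8 libraries of sorted L-GMPs were analysed from 1 list per library. The submitters' processing notes name mm10 and the tools MACS2, Picard, featureCounts, Bowtie2 (2.2.9) and Trim Galore (0.4.4). Their parameters are not given in the sources used here. Libraries were amplified for 13 to 16 cycles, per the labels' protocols. The authors deposited a narrowPeak list per sample, so peaks were not pooled. The authors deposited for each peak a −log10 p and a −log10 q, a fold enrichment (a ratio over the local background), a whole-number score near 10 times the −log10 q, and a summit. Only positions, summits and −log10 q were used here. The lowest −log10 q of a list was between 1.30 and 1.41. These values are not scaled between libraries, so they were used as ranks within a list, and read depth is unknown.

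Peaks on 19 autosomes and X that shared at least 1 bp were merged over the 8 lists in Python 3.11.15 (pandas 2.3.3), with the highest percentile per library kept. Gene spans and promoter windows are from RefSeq on GRCm38.p6, the assembly also called mm10, and the annotation used here gives no exons, so inside a gene can mean exon or intron. Ranks over shared regions were fitted in R 4.3.3 with limma 3.58.1 (group and set as terms, all 8 libraries) with Benjamini-Hochberg adjustment over all 33321 regions and a threshold of 0.05. The limma step was run on simulated ranks for KO against FL, and the share of changed regions it recovered is not given here. The smallest exact p for single values of 3 against 3 libraries is 0.1, so none is given. Alternatives were a 10 kb window, equal-length lists, a −log10 q of at least 5, an overlap of 100 bp, leaving out each library, and for ranks normal scores, no set term, a replicate block, KO and FL libraries only and the Mx1-Cre set only. Counting which called regions were called again under an alternative was added after the data were seen.

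Replicate numbers are shared by KO and FL. Deviations from the group means correlated at 0.241, 0.303 and 0.553 for the same numbers over the 33321 regions. Numbers 1 and 2 crossed gave 0.275 and 0.266, and number 3 differs from the others by set. The correlations therefore do not single out a pairing by number. Only the replicate block took the numbers as paired.

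Named regions were, per comparison, all called member regions or the 12 with the highest mean percentile, the 6 with the largest rank difference in each direction, and each member's start region. Regions of further genes were named when called. The members and lists were chosen with earlier results of these data known.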

Additional observations from a re-analysis of the deposited data

Results flagged for a closer look

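The relative coverage of kinase and adaptor regions moved in opposite directions in the Cre sets with the 50 kb window. In the Mx1-Cre set KO 1 stood at 3.15 points and KO 2 at 2.44, while FL 1 stood at 7.01 and FL 2 at 7.07. In the Tie2-Cre set it was 5.78 in KO 3, against 4.69 in FL 3. The KO minus FL difference of the Mx1-Cre set was thus -4.25, that of the Tie2-Cre set was 1.09, and the first less the second was -5.34 points. With 1 library per group in the Tie2-Cre set the difference between the sets was not tested. With the 10 kb window KO was lower in both sets, with -3.85 and -1.32 in KO 1 and KO 2, while FL 1 had 0.00723 and FL 2 -0.321, and with 5.79 in KO 3, against 6.46 in FL 3.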

How the results depend on the processing

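No member region was called by limma in either comparison under any setting, the replicate block (KO and FL libraries paired by number, 0 calls) included. Leaving out 1 library at a time gave, for KO against FL, 1 to 4 member regions lost and 1 to 31 gained. The shares of the highest counts stand with the KO results above. For 4S-A against FL 3 it gave 50 lost (9.82%, beside 14.2% of all regions) to 68 (13.4%, beside 18.8%). Gained ones there numbered 79 (15.2%, beside 20.3%) to 119 (20.6%, beside 24.3%). For 4S-A against the other 6 libraries, 4 to 6 were lost and 34 to 83 gained. These were at most 2.55% lost (beside 2.51%) and 14.4% gained (beside 15.7%). With a 10 kb window 0 were gained in KO (0%, beside 0.754% of all regions). Against FL 3, 19 were lost (7.39%, beside 11.7%) and 24 gained (9.92%, beside 16.4%). Against the other 6, 2 were lost (1.77%, beside 1.36%) and 13 gained (5.37%, beside 9.75%). With equal-length lists 2 were lost in KO (0.858%, beside 0.563% of all regions) and 2 gained (0.8097%, beside 0.7059%). These lists gave 44 lost and 28 gained against FL 3, whose shares stand with the 4S-A results above. They also gave 3 lost (1.415%, beside 3.626%) and 10 gained (3.4965%, beside 7.061%) against the other 6. At a −log10 q of at least 5, 3 were gained in KO (1.04%, beside 0.805%). Relative coverage of inhibitors in KO minus FL was 3.62 with the 10 kb window, 0.0790 at the stricter q against 1.48 as reported, and 0.395 (without KO 2) to 2.35 with 1 library left out. In 4S-A minus FL 3 it was -3.23 with the 10 kb window, -3.86 at the stricter q and -2.27 to -0.738 with 1 library left out. For kinases and adaptors, 4S-A minus FL 3 was 2.14 with the 10 kb window, -4.58 in equal-length lists and -0.058 at the stricter q, both below 0 against 3.02 in the whole lists, and 2.84 to 3.20 with 1 library left out. KO minus FL was -3.46 to -1.79. The causes were not tested. Of 117 alternative values, 92 moved by less than the spread between libraries or, for counts, by at most 1.5 times. These take in the 0.0790, 0.395 and -0.738 above, and also every limma count, which stayed at 0. Of the other alternative values 23 moved further and 2 changed sign. Unknown read depth and the single control of the Tie2-Cre set limit what absence of a peak can show.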
